A study of Homo sapiens with 16 samples.

Results

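Bidirectional protein-coding promoters are described here as they appeared in 3 lists of ChIP-Seq peaks from HEK293T cells, a human embryonic kidney cell line. The peaks of the 3 lists were pooled, overlapping peaks were merged into regions, and a region was kept when it lay within 1 kb of the starts of at least 2 protein-coding genes on opposite strands (GENCODE release 44 placed on GRCh37, which is hg19). Of 6222 merged regions, 739 met this rule, 3692 lay within 1 kb of protein-coding starts on 1 strand only, and 1791 lay near no protein-coding start. The lists were 1 each for wild-type cells, for POLK-/- cells, which lack the gene of DNA polymerase κ (Pol κ, a translesion DNA polymerase), and for DDX23-/- cells, which lack the gene of a spliceosomal RNA helicase. All cells were HEK293T without treatment, and the sources used here do not say whether a knockout line was 1 clone. The libraries carry labels that begin with R_, with 2 pulldown and 2 control samples for each genotype, and the study's methods do not describe them. Peak lists do not show whether a targeted gene was lost. Pol κ is the labelled target, whereas the protocol names an anti-FLAG gel and no tag is given for these genotypes, so the protein that was pulled down is uncertain. The numbers in the peak names match the sample numbers in the POLK-/- list only, so the source library of the other two is uncertain. With 1 list for each genotype, differences between lists have no replicate check, and none was tested.

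A bidirectional promoter is a stretch of DNA that lies between the starts of a pair of genes transcribed away from each other. Such promoters usually lie in CpG islands, often lack a TATA box, and frequently drive housekeeping genes, among them many genes of DNA repair, translation and mitochondria. Pairs whose transcribed stretches overlap at their starts are grouped with them here, since a region can also lie near both starts of such a pair.

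The 7 stretches below show what lay between the starts at members with a peak in all 3 lists. They are from divergent members with 30 to 300 bp between the starts, no exon in between, and a summit between the starts in at least 1 list, taken from the highest down by the lowest of their 3 enrichments. Each is printed on the plus strand of GRCh37, from the start of the minus-strand gene, on the left, to that of the plus-strand gene, on the right. Capitals mark matches on either strand to GGGCGG (SP1 and related factors), CCAAT (NF-Y), TGACGTCA (CREB and ATF) and GCGCATGCG (NRF1), where overlapping matches run together. These are the 4 of 8 motifs searched that had a match here. The stretches are chr11:77531916-77532154 (RSF1/AAMDC), chr14:67826983-67827044 (ATP6V1D/EIF2S1), chr11:96123121-96123152 (CCDC82/JRKL), chr16:15737012-15737123 (MARF1/NDE1), chr7:6048762-6048885 (PMS2/AIMP2), chr10:7829957-7830109 (KIN/ATP5F1C) and chr9:131709883-131709977 (DOLK/NUP188).
RSF1/AAMDC: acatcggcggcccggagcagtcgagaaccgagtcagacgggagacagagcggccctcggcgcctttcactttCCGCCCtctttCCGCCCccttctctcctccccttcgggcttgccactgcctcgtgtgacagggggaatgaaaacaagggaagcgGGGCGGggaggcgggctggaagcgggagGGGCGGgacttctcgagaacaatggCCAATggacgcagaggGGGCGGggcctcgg
ATP6V1D/EIF2S1: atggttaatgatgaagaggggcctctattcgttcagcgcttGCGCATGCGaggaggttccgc
CCDC82/JRKL: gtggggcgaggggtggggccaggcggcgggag
MARF1/NDE1: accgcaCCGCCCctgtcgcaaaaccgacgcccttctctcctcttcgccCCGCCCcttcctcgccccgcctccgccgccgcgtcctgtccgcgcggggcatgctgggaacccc
PMS2/AIMP2: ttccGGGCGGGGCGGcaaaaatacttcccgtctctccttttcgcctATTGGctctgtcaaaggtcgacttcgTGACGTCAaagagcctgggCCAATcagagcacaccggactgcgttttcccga
KIN/ATP5F1C: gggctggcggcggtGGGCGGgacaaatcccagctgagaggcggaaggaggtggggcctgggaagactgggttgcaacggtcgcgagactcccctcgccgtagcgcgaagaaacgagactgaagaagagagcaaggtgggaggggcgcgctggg
DOLK/NUP188: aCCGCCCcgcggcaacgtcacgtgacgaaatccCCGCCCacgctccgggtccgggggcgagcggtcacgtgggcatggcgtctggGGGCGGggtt

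GC content of these stretches ran from 54.8% (ATP6V1D/EIF2S1) to 84.4% (CCDC82/JRKL), and they held 3 to 22 CpG dinucleotides each. PMS2, an endonuclease of mismatch repair, and AIMP2, a scaffold of the multi-tRNA-synthetase complex, shared a stretch of 124 bp with 5 matches. The 239 bp between RSF1, a chromatin remodelling subunit, and AAMDC held 6 matches. The 62 bp between ATP6V1D, a subunit of the vacuolar proton pump, and EIF2S1, the alpha subunit of translation initiation factor 2, held 1 match, to the NRF1 motif. The 32 bp between CCDC82 and JRKL held none. Enrichment over background at PMS2/AIMP2 was 17.4 in the wild-type list (95% counting interval 9.27 to 29.8, 13 fragments), 16.0 in POLK-/- cells (10.6 to 23.1, 28 fragments) and 22.4 in the DDX23-/- list (17.4 to 28.4, 68 fragments). At RSF1/AAMDC it was 20.9 (13.7 to 30.6), 20.2 (15.3 to 26.4) and 19.1 (15.8 to 22.9) in the same order. For both pairs the 3 intervals overlapped.

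Enrichment here is the number of fragments at the summit divided by the local background of the peak caller, both recovered from the deposited values. The lists held 1468, 2451 and 5945 peaks, and the libraries behind them had estimated relative depths of 1, 2.36 and 3.94 in the order wild-type, POLK-/- and DDX23-/-. Read totals are unknown. The order of the lists at a single member can change with the scaling, and also with how depth is estimated. The fragments at the summit at the depth of the wild-type library are therefore given beside the enrichment for many of the members named. Counting intervals rest on the fragments at a summit, cover counting error only, and leave out the error of the background. The 3 commonest background levels accounted for 34.1% to 38.5% of the members of a list.

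Gene starts with a partner on the opposite strand had a peak more often than starts without one. Among the 20163 protein-coding genes, 3116 (15.5%) had a start within 2 kb of a start on the opposite strand, which made 1626 start pairs. A peak of any list lay within 1 kb of 48.5% of these starts (95% interval 46.7 to 50.2) and of 21.2% of the 17047 other starts (20.6 to 21.8). In the wild-type list the shares were 11.4% (10.3 to 12.6) against 4.56% (4.25 to 4.88). In the POLK-/- list they were 20.5% (19.1 to 21.9) against 8.15% (7.75 to 8.57). In the DDX23-/- list they were 47.7% (46.0 to 49.5) against 20.7% (20.1 to 21.3). Thus starts in a pair had the higher share in each list, and none of the intervals overlapped. The intervals count each start as independent, although 1 peak can count for both starts of a pair. Those of paired starts are therefore too narrow. A peak at either gene of a pair can lie within 1 kb of both starts, and how much of the difference this makes was not tested. At 100 bp in place of 1 kb the shares were 35.8% (34.1 to 37.5) against 16.2% (15.7 to 16.8).

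Paired starts were also more often CpG-rich, at 70.6% against 50.3%, where CpG-rich means a GC content above 55% and an observed to expected CpG ratio above 0.65 over 300 bp. Among CpG-rich starts alone, a peak of the DDX23-/- list lay within 1 kb of 53.9% of paired starts (51.8 to 56.0) and of 34.1% of unpaired starts (33.1 to 35.1). The wild-type list gave 13.2% (11.8 to 14.7) against 7.59% (7.03 to 8.17), and the POLK-/- list 23.4% (21.6 to 25.2) against 13.4% (12.7 to 14.1). Among the other starts, the DDX23-/- list gave 32.9% (29.9 to 36.0) against 7.16% (6.62 to 7.73). The higher share at paired starts was therefore present in both classes of start, with the same limit on the intervals.

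Counted by pair, 760 of 1626 start pairs (46.7%) had a peak of any list within 1 kb of both starts. A peak of the wild-type list was near 180 pairs (11.1%, 9.59 to 12.7), one of the POLK-/- list near 322 (19.8%, 17.9 to 21.8) and one of the DDX23-/- list near 750 (46.1%, 43.7 to 48.6). With the 1468 peaks of smallest p from each list these shares were 11.1%, 11.4% and 11.2%. Hence the lists differed in this share when whole and gave close values at the same length. Divergent pairs had a peak of any list at 58.0% (52.6 to 63.3) when 1 to 100 bp apart, 54.2% (49.0 to 59.3) when over 100 and up to 300 bp apart and 44.4% (36.8 to 52.2) from there to 1000 bp. Of the 82 pairs over 1000 bp apart, 5 (6.10%) had one. In this class only a peak that reaches into the stretch between the starts can be within 1 kb of both. Overlapping pairs had a peak at 42.4% (38.6 to 46.2), against 49.7% (46.5 to 52.9) of divergent pairs. In the same classes of distance the overlapping pairs had 54.4% (40.7 to 67.6), 53.7% (44.4 to 62.7), 46.1% (40.6 to 51.6) and, over 1000 bp, 20.1% (14.0 to 27.5). At up to 1000 bp the intervals of both arrangements thus overlapped in each class.

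**Figure D1:**
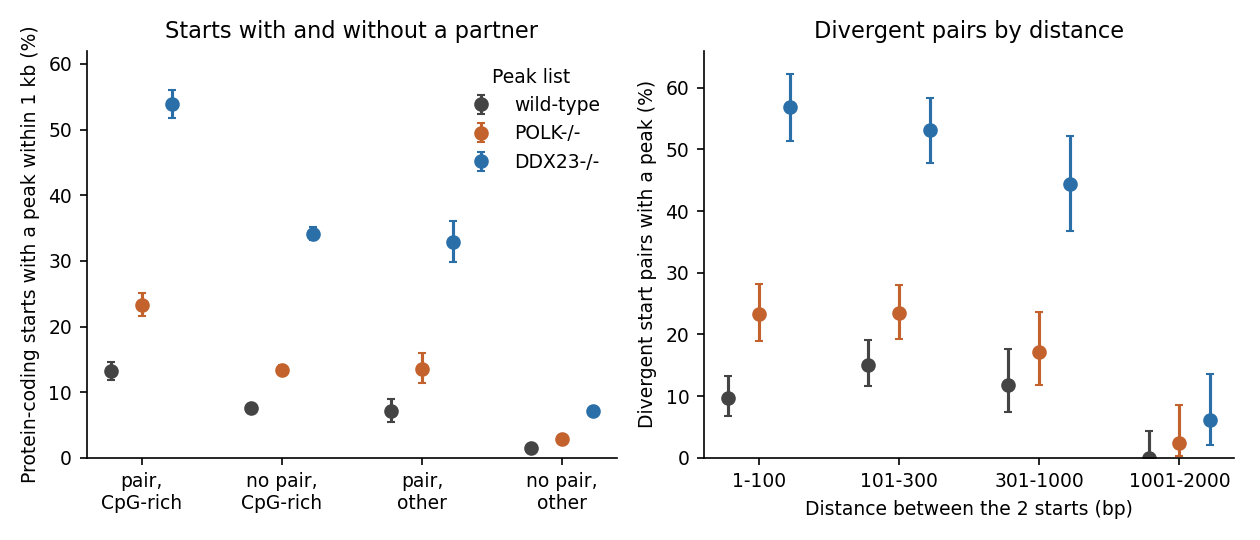
Left, the percentage of protein-coding starts with a peak within 1 kb, for starts with a partner (pair) and without (no pair), split by CpG content, with 1 point for each list and 95% exact binomial intervals. Right, the percentage of divergent start pairs with a peak within 1 kb of both starts, by the distance between the starts; paired starts stood above unpaired starts of the same CpG class in each list, and the shares of the DDX23-/- list were 56.9%, 53.1%, 44.4% and 6.10% from left to right.

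The 739 members belonged to 693 distinct closest pairs on 23 chromosomes. In 464 members (62.8%) the starts were divergent, with a median of 116 bp between them (quartiles 64.8 and 227 bp, maximum 1124 bp). In the other 275 the transcripts overlapped, by a median of 419 bp and at most 1875 bp. Members were 363 bp wide at the median, against 352 bp for regions near starts on 1 strand, and 283 of them (38.3%) covered both starts of their closest pair. For 532 members (72.0%) both starts lay within 300 bp of the region. Within reach of 63 members lay 3 starts, and within reach of 4 members lay 4 starts. At the limit of 1 kb, the farthest members were those of NEMP1/NAB2 and TRMT2A/RANBP1, with the farther start at 997 and 998 bp, and the nearest regions outside were those of GLUD1/SHLD2 and ATP5PF/GABPA at 1019 and 1031 bp (another region of ATP5PF/GABPA was a member).

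Among the members, 167 had a peak in the wild-type list (22.6%, 19.6 to 25.8), 296 in POLK-/- cells (40.1%, 36.5 to 43.7) and 725 in the DDX23-/- list (98.1%, 96.8 to 99.0). Over all 6222 regions the shares were 23.3%, 39.2% and 95.4%, so those of the members stood near the background. All 3 lists shared 119 members (16.1%, 13.5 to 19.0), against 17.8% of all regions. In 395 members (53.5%, 49.8 to 57.1) the peak was in the DDX23-/- list alone, against 55.4% of all regions. In 167 (22.6%, against 18.4%) it was in the POLK-/- and DDX23-/- lists, and in 44 (5.95%, against 3.74%) in the wild-type and DDX23-/- lists. The POLK-/- list alone held 10 (1.35%, against 2.89%) and the wild-type list alone 4 (0.541%, against 1.62%). No member was in both of these without the DDX23-/- list (upper limit 0.498%), against 0.0964% of all regions. Of the 167 members of the wild-type list, 71.3% were found again in POLK-/- cells (63.8 to 78.0) and 97.6% in DDX23-/- cells (94.0 to 99.3). For regions near starts on 1 strand these were 78.2% (75.1 to 81.1) and 96.7% (95.2 to 97.9). For all regions they were 76.9% (74.7 to 79.1) and 92.6% (91.1 to 93.9). Those 119 shared members were 40.2% of the POLK-/- members (34.6 to 46.0), and the 163 shared with the DDX23-/- list were 22.5% of its members (19.5 to 25.7). The same shares over all regions were 45.6% (43.6 to 47.6) and 22.6% (21.5 to 23.7).

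Depth moved with these counts. Members found in the DDX23-/- list alone had a median of 27 fragments there, which is 6.84 at the depth of the wild-type library, and the weakest member of the wild-type list had 7. Of all 562 members of the DDX23-/- list without a wild-type peak, 345 held at least 7 fragments at that depth, with a median of 7.86. Of the 177 members of the POLK-/- list without one, 165 did, with a median of 10.2. Members found in all 3 lists had a median of 63 fragments in the DDX23-/- list, or 16.0 at that depth. In the other direction, the 48 members of the wild-type list without a peak in the POLK-/- list had a median of 10 fragments. At the depth of the POLK-/- library this is 23.6, above the 12 of the weakest member there, and all 48 were above it when scaled so. Scaled by the genome-wide background level alone, 0.573 for wild-type and 1.943 for DDX23-/-, members in the DDX23-/- list alone would have a median above 7. Their place against the weakest wild-type member thus depends on how depth is estimated. The part of depth in the absent peaks was not tested.

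Summits of divergent members lay more often inside a gene than between the starts, a stretch of 116 bp at the median. The share that its width alone would give was not computed. In the wild-type list 33 of 100 divergent members had their summit between the starts (33.0%, 23.9 to 43.1), in the POLK-/- list 47 of 185 (25.4%, 19.3 to 32.3) and in the DDX23-/- list 111 of 453 (24.5%, 20.6 to 28.7). The remaining summits lay just inside 1 of the genes, at a median of 79, 65.5 and 61 bp from its start in the same order, and 88.6% to 95.5% of them within 300 bp. On the minus-strand side lay 38.0%, 45.4% and 39.3% of all summits, and on the plus-strand side 29.0%, 29.2% and 36.2%. When the starts were 1 to 100 bp apart, 14.2% of summits of the DDX23-/- list fell between them (9.58 to 20.0), and this was 29.8% up to 300 bp (23.4 to 36.9) and 37.3% beyond (26.4 to 49.3). At overlapping members 46.3%, 44.1% and 39.7% of summits lay in the shared stretch. Regions near starts on 1 strand had their summit upstream of the nearest start in 42.4%, 46.6% and 44%.

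The same side was kept from list to list in most members. Of 68 divergent members in all 3 lists, 45 had the 3 summits in the same place, and 3 had summits in opposite genes. The wild-type and DDX23-/- lists agreed in place at 67 of 97 members and were in opposite genes at 1, with a median of 37 bp between the summits. The POLK-/- and DDX23-/- lists agreed at 144 of 177 and were opposite at 7, with a median of 31 bp. These agreements are a description, since members in several lists were merged because their peaks overlap.

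**Figure D2:**
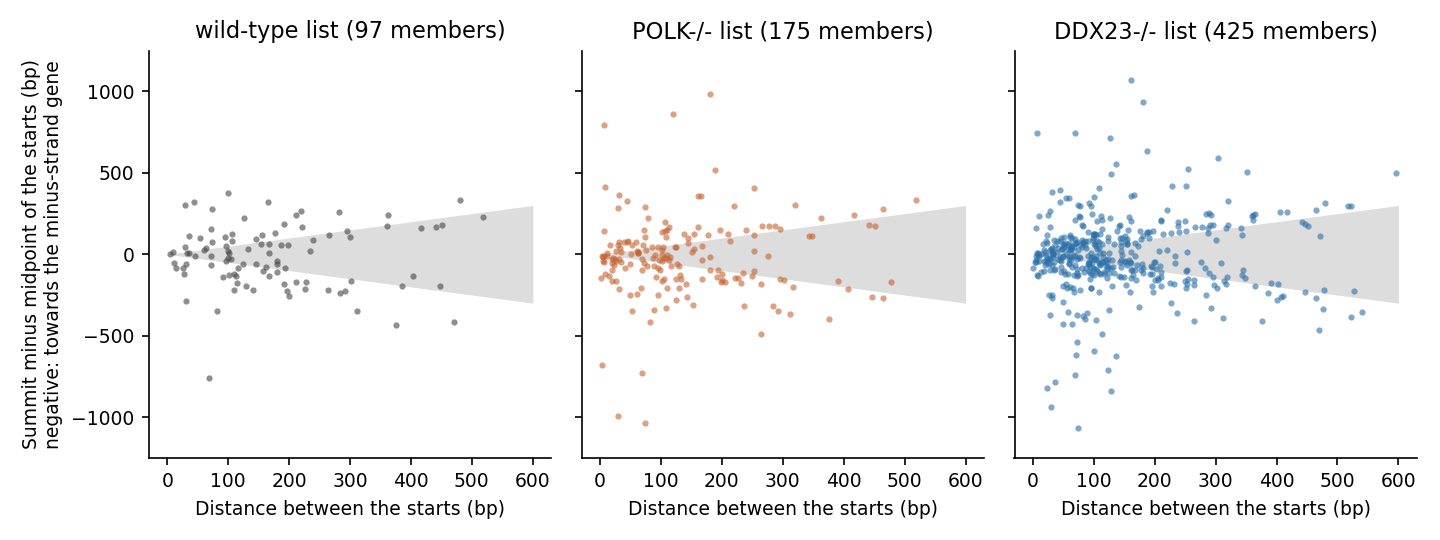
Position of the summit against the midpoint of the starts, in bp, for divergent members with starts up to 600 bp apart, by the distance between the starts, in the wild-type (97 members), POLK-/- (175) and DDX23-/- (425) lists. Each point is a member, the grey wedge is the stretch between the starts, and negative values lie towards the minus-strand gene; most points lie above or below the wedge, and 33.0%, 25.4% and 24.5% of all divergent members had a summit inside it.

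Members were close in strength to other promoter regions. Their median enrichment was 14.5 in the wild-type list (13.4 to 15.7), 10.3 in POLK-/- cells (9.57 to 11) and 10.8 in the DDX23-/- list (10.4 to 11.3). Regions near starts on 1 strand gave 15.4 (14.8 to 15.9), 10.8 (10.5 to 11) and 10.8 (10.6 to 10.9), and regions near no start 19.5 (18.1 to 20.9), 13.4 (12.4 to 14.5) and 11.5 (11.2 to 11.9). Divergent and overlapping members gave medians of 15.3 and 13.9 in the wild-type list, 9.57 and 11 in the POLK-/- list and 10.9 and 10.8 in the DDX23-/- list. Members in all 3 lists had a median of 19.1 in the DDX23-/- list (15.8 to 21.9), and members in that list alone 9.26 (8.97 to 9.56).

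The member with the largest enrichment in each list was METTL26/MCRIP2 (chr16:686350-687104), at 90.7 in the wild-type list (77.4 to 106, 165 fragments), 114 in POLK-/- cells (102 to 128, 311 fragments) and 126 in the DDX23-/- list (113 to 139, 373 fragments). Its 3 summits lay between the starts, which were 451 bp apart, and the region held A and B boxes, the internal promoter elements of tRNA genes, in tRNA order. At the depth of the wild-type library its summits held 165, 132 and 94.6 fragments, so that the order of the lists was the reverse of that by enrichment. ELF1/WBP4 (chr13:41634556-41635267), the pair of an ETS-family transcription factor and a splicing factor, was second in the DDX23-/- list. It had 23.9 in the wild-type list (16.0 to 34.4), 32.8 in POLK-/- cells (26.3 to 40.3) and 72.6 in the DDX23-/- list (61.1 to 85.6). Its summits lay inside ELF1, at -757.5, -730.5 and -740.5 bp from the midpoint of the starts, in a window with 51% GC that also held such elements. At wild-type depth they held 29, 37.8 and 35.7 fragments, with the DDX23-/- list no longer highest. Scaled by the genome-wide background level of each list alone, the ratios to wild-type were 1.41 (POLK-/-) and 1.43 (DDX23-/-). The DDX23-/- list was then still highest, so the ranking rests on how depth is estimated. No other member held an A and a B box in tRNA order.

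ATOX1/G3BP1 (chr5:151149994-151151726) pairs a copper chaperone with a protein that nucleates stress granules, in transcripts that overlap by 1487 bp. Its enrichment was 69.3 in the wild-type list (49.9 to 93.7), 18.4 in POLK-/- cells (15.0 to 22.4) and 70.6 in the DDX23-/- list (59.7 to 82.9). The POLK-/- value was the low one, with no overlap of its interval with the others. Its local background was 5.43 fragments there, against 0.606 in the wild-type list and 2.11 in the DDX23-/- list. Scaled to the depth of the wild-type library, its summits held 42, 42.4 and 37.8 fragments, which differ little.

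XRCC3, a protein of homologous recombination, forms a pair with ZFYVE21 (chr14:104181320-104182023). Its values were 33.2 (20.8 to 50.2), 28.6 (22.8 to 35.5) and 59.8 (49.9 to 71.1) in the lists of wild-type, POLK-/- and DDX23-/- cells, and the summits lay inside XRCC3 in each. At SCO1/ADPRM (chr17:10600471-10601301), where SCO1 is a copper chaperone of cytochrome c oxidase, they were 38.7 (24.5 to 58.1), 40.6 (32.7 to 49.7) and 26.6 (22.1 to 31.8). At AARS1/DDX19B (chr16:70322969-70323579), the pair of alanyl-tRNA synthetase and an mRNA export helicase, they were 34.7 (22.0 to 52.0), 26.3 (19.5 to 34.8) and 23.5 (19.3 to 28.4). Each of these members was therefore in all 3 lists, and no list was the highest throughout. ATP6V1D/EIF2S1, whose sequence is printed above, had 43.6 (28.2 to 64.4), 18.7 (14.7 to 23.3) and 35.0 (28.6 to 42.3). At wild-type depth it held 25, 32.2 and 26.9 fragments, so the POLK-/- list was lowest by enrichment and highest by depth. XRCC3/ZFYVE21 held 22, 34.8 and 32.4 fragments, SCO1/ADPRM 23, 39.5 and 30.7, and AARS1/DDX19B 23, 20.8 and 27.1, which are other orders than by enrichment.

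The other members among the 6 strongest of a list differed in which list was highest. MDH1B/FASTKD2, the latter a mitochondrial RNA-binding protein, had 25.1 in the wild-type list (14.6 to 40.2), 48.6 in POLK-/- cells (37.6 to 61.8) and 30.8 in the DDX23-/- list (23.7 to 39.3). JMJD6/METTL23 had 20.3 (14.3 to 28.0), 35.3 (29.8 to 41.6) and 31.2 (26.3 to 36.8). At wild-type depth MDH1B/FASTKD2 held 17, 28.0 and 16.2 fragments and JMJD6/METTL23 37, 61.1 and 36.0. The DDX23-/- list was then lowest at both, by little. Scaled by the genome-wide background level alone, its ratios to wild-type were 1.11 and 1.13, with the wild-type list lowest at both. ATG3, a conjugating enzyme of autophagy, with SLC35A5 had 11.2 (6.51 to 17.9), 32.8 (23.5 to 44.5) and 10.8 (7.97 to 14.2). PASK/PPP1R7 had 26.0 (15.4 to 41.2), 23.8 (17.1 to 32.3) and 57.8 (48.2 to 68.7). FBXW2, a substrate receptor of a ubiquitin ligase, with B3GALT9 had 9.35 (5.45 to 15.0), 9.20 (6.83 to 12.1) and 49.4 (40.0 to 60.3). By enrichment ATG3/SLC35A5 was thus highest in the POLK-/- list and FBXW2/B3GALT9 in the DDX23-/- list. At wild-type depth ATG3/SLC35A5 held 17, 17.4 and 12.4 fragments, with the POLK-/- value no longer apart. FBXW2/B3GALT9 held 17, 21.2 and 24.3, in the same order as by enrichment for the DDX23-/- list but closer together.

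With each peak's own background, the median ratios of enrichment to the wild-type list lay on either side of 1 at the members. For the 119 members in both lists the POLK-/- value was 0.855 times the wild-type value at the median (0.744 to 0.923). A second scaling divided the fragments by the genome-wide background level of each list in place of each peak's own background. The median was then 1.11 (1.03 to 1.19), on the other side of 1. This level was 0.573 for wild-type, 1.25 for POLK-/- and 1.943 for DDX23-/-. It differs from the relative depths of 1, 2.36 and 3.94, which also take in the length of the shortest peak. Median ratios at those depths were not computed. Over 1.5-fold higher in the POLK-/- list were 18 members (15.1%), against 22.7% of all regions in both lists, and over 1.5-fold lower were 40 (33.6%), against 28.6%. Scaled by the genome-wide level, 22 members were higher (18.5%, against 18.9% of all regions) and 3 were lower (2.52%, against 5.39%). The balance thus turned with the scaling. For the 163 members in both, the DDX23-/- value was 1.09 times the wild-type value (0.964 to 1.18). Scaled by the genome-wide level, the DDX23-/- value was 1.25 times the wild-type value (1.19 to 1.35). Over 1.5-fold higher in the DDX23-/- list were 46 members (28.2%), against 38.6% of all regions, and over 1.5-fold lower were 36 (22.1%), against 13.5%. Scaled by the genome-wide level, 44 were higher (27.0%, against 29.0%) and 9 were lower (5.52%, against 5.52%). Members then stood near the background in both directions. The median over all regions was 0.941 (0.895 to 0.997) for POLK-/- and 1.24 (1.19 to 1.30) for DDX23-/-. Scaled by the genome-wide level, members and all regions had close medians, at 1.11 and 1.11 for POLK-/- and 1.25 and 1.25 for DDX23-/-.

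**Figure D3:**
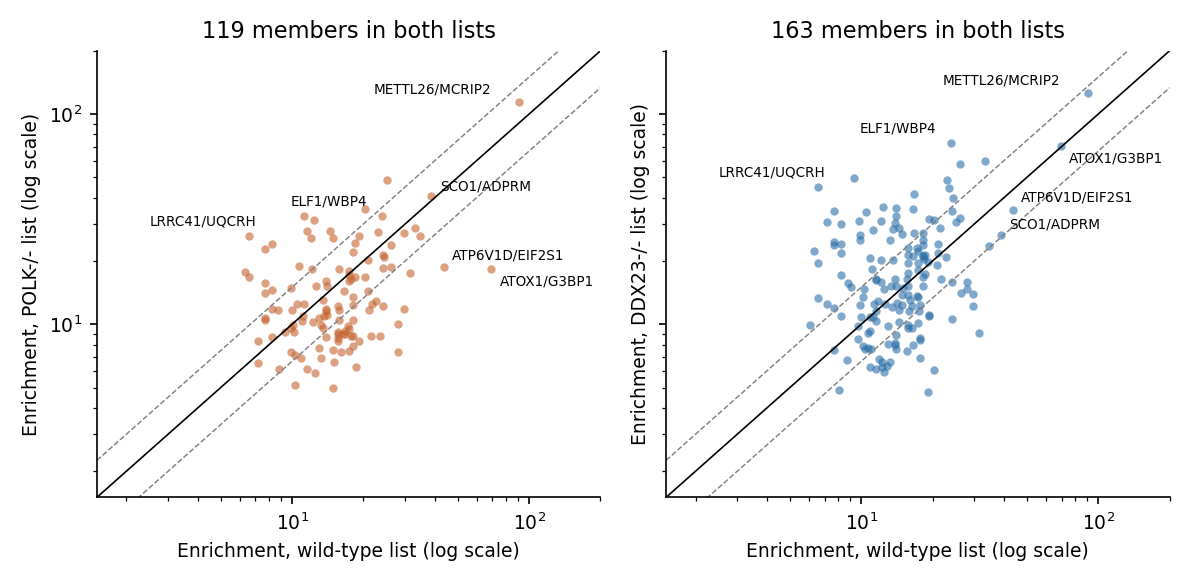
Enrichment over local background (log scales) at members in both lists, POLK-/- against wild-type (119 members, left) and DDX23-/- against wild-type (163 members, right), 1 point for each member. The solid line marks equal values and the dashed lines 1.5-fold; METTL26/MCRIP2 was highest on each axis, and ATOX1/G3BP1 lay below the lines on the left (69.3 against 18.4) and close to the solid line on the right (69.3 against 70.6).

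The pair that holds POLK itself was a member. The start of POLK lies 293 bp inside the transcribed stretch of CERT1, the gene of a ceramide transfer protein, and the region was chr5:74807277-74807596. It had 15.7 in the wild-type list (7.18 to 29.8, 9 fragments) and 9.56 in the DDX23-/- list (6.41 to 13.7, 29 fragments), and no peak in the POLK-/- list. Of all members, 40.1% had one there. The 9 fragments of the wild-type list would be 21.2 at the depth of the POLK-/- library. DDX23 has no opposite start within 2 kb and was in no pair.

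Of the other pairs of textbook interest, MRPS12/SARS2, a mitochondrial ribosomal protein and the mitochondrial seryl-tRNA synthetase, had a peak in all 3 lists, at 14.8 (8.80 to 23.5), 7.55 (5.42 to 10.2) and 13.8 (9.90 to 18.7). GART/SON, the pair of a purine synthesis enzyme and a splicing cofactor, had 11.3 in POLK-/- cells (8.26 to 15.1) and 18.8 in the DDX23-/- list (14.2 to 24.5). FEN1, the flap endonuclease of Okazaki fragment processing, with TMEM258 had 9.08 (5.47 to 14.2) and 12.9 (9.25 to 17.6) in these lists. PRKDC, the catalytic subunit of DNA-dependent protein kinase, and MCM4, a subunit of the replicative helicase, start 7 bp apart and had 2 members. The one over PRKDC had 6.54 in POLK-/- cells (3.66 to 10.8) and 18.6 in the DDX23-/- list (13.4 to 25.1), and the one inside MCM4 had 9.66 (5.73 to 15.3) and 12.9 (9.15 to 17.6). None of these 3 pairs had a peak in the wild-type list. By fragments at wild-type depth the order turned at MRPS12/SARS2, with 18, 17.4 and 10.4, and at GART/SON, with 19.5 in POLK-/- cells and 14.2 in DDX23-/- cells.

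PPAT and PAICS, which encode enzymes of purine synthesis, also had 2 members, 1 with a summit between the starts in the POLK-/- list (7.61, 4.88 to 11.3) and 1 inside PAICS in the DDX23-/- list (9.26, 5.49 to 14.6). ATM, a kinase of the DNA damage response, and NPAT, a coactivator of histone genes, had a peak in the DDX23-/- list alone (7.40, 4.64 to 11.2). SURF1/SURF2, COL4A1/COL4A2 and BRCA2/ZAR1L had no peak in any list. HSPD1/HSPE1 and TAP1/PSMB9 were not pairs by the gene starts used.

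Over the pooled lists, most of whose peaks came from DDX23-/- cells, 46.7% of all start pairs had a peak, and the shares of the gene lists ran from 5.88% to 66.7%. Aminoacyl-tRNA synthetases and tRNA modification enzymes had a peak in 24 of 36 pairs (66.7%, 49.0 to 81.4), transcription machinery in 30 of 47 (63.8%, 48.5 to 77.3), cytosolic ribosomal proteins in 14 of 22 (63.6%, 40.7 to 82.8) and RNA splicing and processing in 52 of 82 (63.4%, 52.0 to 73.8). DNA replication and repair had 46 of 80 (57.5%, 45.9 to 68.5), the mitochondrial ribosome and respiratory chain 47 of 92 (51.1%, 40.4 to 61.7), and the proteasome and ubiquitin conjugation 33 of 76 (43.4%, 32.1 to 55.3). Zinc finger ZNF genes had 19 of 55 (34.5%, 22.2 to 48.6), collagens and protocadherins 1 of 4, and replication-dependent histones 1 of 17 (5.88%, 0.149 to 28.7). Only the intervals of the tRNA enzymes, of transcription machinery, of splicing and of the histones excluded the background. The lists were chosen with earlier results of these data known, and these shares are a description.

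In the wild-type list the highest share was that of tRNA enzymes, 9 of 36 pairs (25%, 12.1 to 42.2) against 11.1% of all pairs, and the mitochondrial list followed with 17 of 92 (18.5%, 11.1 to 27.9). Transcription machinery had 5 of 47 (10.6%, 3.55 to 23.1), splicing and processing 9 of 82 (11%, 5.14 to 19.8) and ribosomal proteins 1 of 22 (4.55%, 0.115 to 22.8), at or below the share of all pairs. In the POLK-/- list the tRNA and mitochondrial lists had 36.1% (20.8 to 53.8) and 28.3% (19.4 to 38.6) against 19.8%. Neither the histones nor the collagens had a peak in either list, with upper limits of 19.5% and 60.2%. The histone pair with one was H2AC15/H2BC15 (6.25 in the DDX23-/- list, 4.08 to 9.16), and the collagen pair was COL4A6/COL4A5 (6.10, 4.09 to 8.76).

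**Figure D4:**
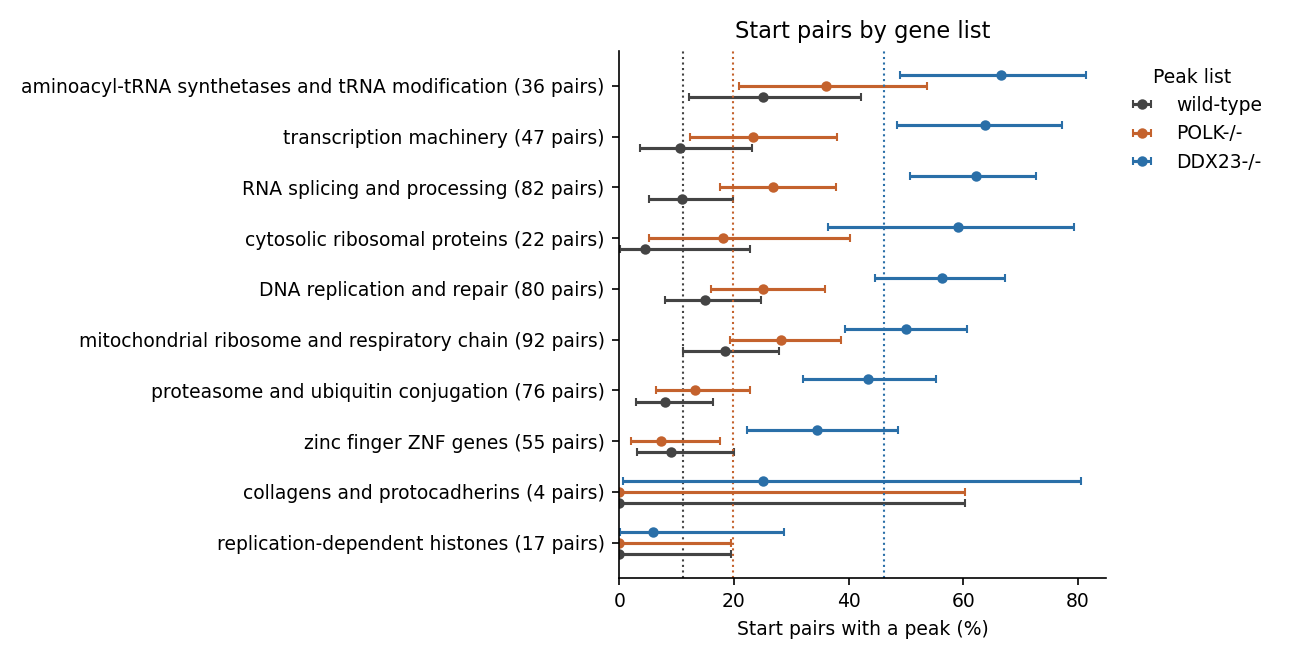
Percentage of the start pairs of each gene list with a peak in the lists of wild-type, POLK-/- and DDX23-/- cells, with 95% exact binomial intervals and the number of pairs in parentheses. Dotted lines give the share of all 1626 start pairs in each list (11.1%, 19.8% and 46.1%); in the DDX23-/- list, tRNA enzymes (66.7%) stood highest and replication-dependent histones (5.88%) lowest.

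Members of these lists with the largest enrichment in the DDX23-/- list, up to 4 each, are given here by role. Of DNA replication and repair, RRP9/PARP3, the latter a poly(ADP-ribose) polymerase, had 21.0 (12 to 34.2), 11.6 (7.79 to 16.7) and 24.2 (17.8 to 32.2) in the lists of wild-type, POLK-/- and DDX23-/- cells. The stronger of 2 members at CCT6B/LIG3, the latter a DNA ligase of single-strand break repair, was missing from the wild-type list and had 16.4 (10.4 to 24.6) and 24.7 (19.1 to 31.4) in the others. The intervals of both pairs overlapped between the lists that held them, except those of RRP9/PARP3 in the POLK-/- and DDX23-/- lists, which did not. At wild-type depth RRP9/PARP3 held 16, 12.3 and 11.9 fragments, and that difference was gone.

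Of the respiratory chain, LRRC41/UQCRH, the latter a subunit of complex III, had 6.60 (3.77 to 10.7), 26.2 (19.5 to 34.4) and 45.1 (37.8 to 53.4), with summits inside LRRC41 in each list. The wild-type value was the low one, and at wild-type depth the summits held 16, 21.6 and 34 fragments. TIMM8B/SDHD, a chaperone of mitochondrial import and a membrane anchor of succinate dehydrogenase, start 26 bp apart and had 26.0 (15.4 to 41.2), 18.8 (14.0 to 24.7) and 32.0 (25.9 to 39.1). CPSF7/SDHAF2, a cleavage factor and an assembly factor of succinate dehydrogenase, start 11 bp apart and had 13.3 (6.62 to 23.7), 9.94 (6.55 to 14.5) and 25.2 (19.9 to 31.6). At wild-type depth TIMM8B/SDHD held 18, 21.6 and 24.1 fragments and CPSF7/SDHAF2 11, 11.5 and 19.0. The POLK-/- list was then no longer lowest at either. GGA3/MRPS7, the latter a mitochondrial ribosomal protein, had 10.4 (6.29 to 16.3), 12.5 (10.00 to 15.5) and 34.3 (28.0 to 41.6). At wild-type depth it held 19, 36.1 and 26.4 fragments, with the POLK-/- list and not the DDX23-/- list highest.

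Of the transcription machinery, POLR3K/SNRNP25, a subunit of RNA polymerase III and a protein of the minor spliceosome, had 16.5 (9.45 to 26.9), 14.4 (9.91 to 20.2) and 35.5 (28.7 to 43.4). ZBTB4/POLR2A, the latter the largest subunit of RNA polymerase II, had no wild-type peak, 6.18 in POLK-/- cells (4.46 to 8.36) and 22.8 in the DDX23-/- list (17.7 to 28.8). Its summits held 17.8 and 17.5 fragments at wild-type depth, with local backgrounds of 6.79 and 3.03 fragments in these lists. Of RNA splicing and processing, PBLD/HNRNPH3, the latter an RNA-binding protein of the hnRNP family, had 18.1 (11.4 to 27.5), 10.5 (7.95 to 13.6) and 27.1 (20.8 to 34.7), and at wild-type depth 22, 24.2 and 15.7 fragments, in the reverse order of the knockouts. Of the ribosomal proteins, RPL6/PTPN11 had 18.4 (12.3 to 26.4) and 28.5 (22.7 to 35.3) in the POLK-/- and DDX23-/- lists, and RPL35/ARPC5L 24.9 (19.0 to 32.1) in the DDX23-/- list alone. NDUFA7/RPS28 and MED22/RPL7A were in these lists as well, at 11.5 and 15.0 and at 11.1 and 13.2, and MED22/RPL7A held 15.3 and 9.38 fragments at wild-type depth, the other way round.

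Of the tRNA list, TRNT1, which adds the CCA end of tRNA, with IL5RA had 8.83 (5.66 to 13.1) in the POLK-/- list and 25.2 (18.7 to 33.3) in the DDX23-/- list. ADAT2/PEX3, the former a tRNA deaminase subunit, had 5.89 (3.77 to 8.76) and 26.9 (21.1 to 33.9) in these lists. At wild-type depth IL5RA/TRNT1 held 10.2 and 12.4 fragments and ADAT2/PEX3 10.2 and 18.3, closer together than by enrichment. COG5/DUS4L-BCAP29, the latter a readthrough gene of a dihydrouridine synthase, had 15.7 (7.18 to 29.8), 11.6 (7.10 to 18.0) and 23.2 (16.9 to 31.0). Of the zinc finger genes, ZNF425/ZNF398 had 9.90 (5.87 to 15.6), 14.8 (11 to 19.5) and 26.7 (22.0 to 32.1), and ZNF721/PIGG had 16.6 (8.28 to 29.7) in the wild-type list and 21.1 (15.1 to 28.6) in the DDX23-/- list. At wild-type depth ZNF721/PIGG held 11 and 10.4 fragments.

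The 14 members without a peak in the DDX23-/- list rested on few fragments, 8 to 11 each in the wild-type list and 12 to 24 each in the POLK-/- list. At the depth of the DDX23-/- library the medians would be 37.5 for the 4 of the wild-type list and 33.5 for the 10 of the POLK-/- list. All of them would be at or above the 16 of the weakest member there. Why they had no peak was not tested. OSGEP/APEX1, an enzyme of tRNA modification and the major abasic site endonuclease, had 11.6 (5.00 to 22.8, 8 fragments) in the wild-type list alone. HIPK2/TBXAS1 (14.5, 6.94 to 26.6), CALR3/C19orf44 (13.3, 6.08 to 25.2) and RPS25/TRAPPC4 (8.84, 4.41 to 15.8) were likewise in that list alone. CAB39L/SETDB2 (11.8, 6.73 to 19.1) was in the POLK-/- list alone. A second member, with a peak in the DDX23-/- list, lay 136 bp from that of CALR3/C19orf44, so the absence there concerns the stretch and not the pair. In all, 46 pairs had 2 separate members, in 38 of them on either side of the midpoint between the starts.

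The 300 bp around the summits of members had a median GC content of 66.3% (66 to 67.0) and a median observed to expected CpG ratio of 0.861 (0.850 to 0.871). Regions near starts on 1 strand had 67.7% (67.3 to 68.0) and 0.854 (0.848 to 0.860), regions near no start 62.7% (62 to 63.7) and 0.752 (0.739 to 0.762). Around the midpoints of the 866 start pairs without a peak the GC content was 63.0% (62 to 63.7) and the ratio 0.774 (0.758 to 0.795), and around those of the 760 pairs with a peak they were 65.0% (64.7 to 65.7) and 0.854 (0.838 to 0.874). Pairs with a peak therefore had the higher CpG ratio, while members differed little from other occupied promoters.

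Motifs were counted in the same windows on both strands, a window counting once for each motif. CCGGAAG, the core bound by ETS-family factors such as GABPA, was in 26.4% of members (23.2 to 29.7), in 19.7% of regions near starts on 1 strand (18.5 to 21.1) and in 12.1% of windows at all protein-coding starts (11.6 to 12.5). AAGATGGC, the motif of YY1, was in 10.8% (8.68 to 13.3), 7.04% (6.24 to 7.92) and 3.61% (3.36 to 3.88). ACTACAA, the core of ZNF143, was in 4.74% (3.32 to 6.53), 2.49% (2.01 to 3.05) and 2.81% (2.59 to 3.05). For these motifs the interval of the members lay above those of both other kinds of window. Around the midpoints of all start pairs, CCGGAAG was in 20.4% (18.5 to 22.5), AAGATGGC in 4.86% (3.87 to 6.02) and ACTACAA in 3.94% (3.04 to 5.00), and the last interval overlapped that of the members. ACTACAA was in 2.40% of members with a wild-type peak (0.656 to 6.02).

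Around the midpoints, CCGGAAG was in 25.9% of pairs with a peak (22.8 to 29.2) and in 15.6% of pairs without (13.2 to 18.2), AAGATGGC in 7.24% (5.50 to 9.32) and 2.77% (1.78 to 4.10), and GCGCATGCG in 6.58% (4.92 to 8.58) and 2.89% (1.88 to 4.23). GGGCGG was in 75% of members (71.7 to 78.1) and 74.9% of regions near starts on 1 strand, against 54.1% of all starts. CCAAT was in 35.3% of members, 35.3% of those regions and 33.7% of all starts. TGACGTCA was in 2.71%, 3.28% and 2.17%. TATAAA, the core of the TATA box, was in 1.89% of members (1.04 to 3.16), 2.93% of regions near starts on 1 strand and 9.23% of all starts (8.83 to 9.64). A match shows that the letters are in the window and not that a factor was bound.

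**Figure D5:**
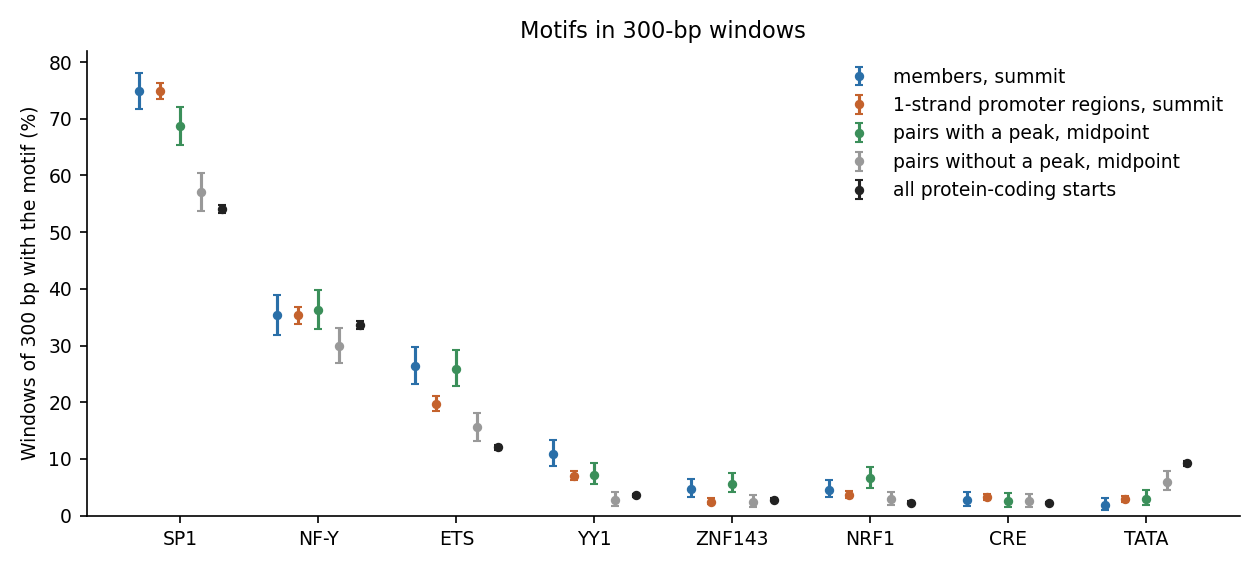
Percentage of 300-bp windows with each of 8 motifs on either strand, at the summits of members, at the summits of regions near starts on 1 strand, at the midpoints of start pairs with and without a peak, and at all protein-coding starts, with 95% exact binomial intervals. The ETS motif was in 26.4% of member windows against 19.7% and 12.1% at other promoter regions and all starts, and the TATA motif in 1.89% against 9.23% at all starts.

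Small RNA genes were rare among the members. An annotated small RNA gene overlapped 5 members and the tRNA-type boxes lay in 2, in all 7 members (0.947%), against 3.86% of all regions. By chromosome, the share of start pairs with a peak in any list ran from 25.5% of 51 pairs on chromosome 8 (14.3 to 39.6) to 9 of 10 on chromosome 21 (90.0%, 55.5 to 99.7), and was 28.9% of 45 on chromosome X (16.4 to 44.3). The single pair on chromosome Y had none.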

How the data were processed

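ChIP-Seq of HEK293T cells was deposited as 3 peak lists in narrowPeak form, 1 per genotype. Of 16 samples, 12 belong to these libraries, and the data of the control samples were not analysed here. Per the file headers and values, the authors' files give for each peak a fold enrichment, which is a ratio with 1 added to both terms, −log10 p and −log10 q values, a score of 10 times −log10 q, and the summit. The submitters' processing notes name Bowtie2, MACS2, bedtools, deepTools and hg19. The calling threshold, the use of controls and any pooling of replicates are not given in the sources used here.

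From each deposited fold and −log10 p, the fragments at the summit and the local background were recovered (relative error of p at most 0.0001), for every peak, and their quotient without the added 1 is the enrichment. Recovery was checked on simulated data, with 400 of 400 peaks recovered for each list. Pooled peaks were merged where they overlapped. Starts were the 5′ ends of protein-coding genes, and a start pair lay within 2 kb. Shares have exact Clopper-Pearson 95% intervals and medians order-statistic 95% intervals, which cover the number of regions or starts only and say nothing of variation among cultures. The relative depth came from the genome-wide background of the caller and the length of the shortest peak of each list. The scaled ratios used the genome-wide background alone. The 300-bp windows lay around the summit of the strongest peak, the midpoint or the start. tRNA-type promoters were an A box with a B box 24 to 110 bp after it.

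Named were the 6 members with the largest enrichment in each list, pairs of textbook interest, up to 5 members absent from the DDX23-/- list or in the wild-type list only, and up to 4 of each of 10 gene lists by enrichment in the DDX23-/- list, of which examples are given. No sequence was printed from chromosome 8, whose members are in every count. Some members and 1 sequence that these rules select are not reported here. Members and lists were chosen with earlier results of these data known. Python 3.11.15, pandas 2.3.3, numpy 2.4.6, SciPy 1.17.1, pysam 0.24.0 and matplotlib 3.10.9 were used.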

Additional observations from a re-analysis of the deposited data

How the results depend on the processing

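No paired analysis was possible because there was 1 list per genotype. Of 69 alternative values, 42 stayed within the limits of the reported value, 26 lay outside them and 1 lay on the other side of 1. With the 1468 peaks of smallest p from each list, 281 members remained, with a peak of wild-type, POLK-/- and DDX23-/- cells at 59.4%, 60.1% and 58.0% and in all 3 at 26.7%. Start pairs then had a peak at 11.4% (POLK-/-) and 11.2% (DDX23-/-), the median ratio of DDX23-/- to wild-type was 1.43, and starts in a pair and in no pair had a peak of any list at 19.3% and 7.37%. At a −log10 q of at least 5, members had a peak in the wild-type list at 18.2% and in all 3 at 13.5%, start pairs at 8.06%, 16.8% and 41.6%, and starts at 43.9% and 18.8%. Within 500 bp, start pairs had one at 9.23%, 17.2% and 39.5%. Pairs up to 1 kb apart had one at 21.9% (POLK-/-) and 51.3% (DDX23-/-), and divergent pairs at 48.9% (DDX23-/-). Chosen after seeing the data were the scaling by the genome-wide background level and starts within 100 bp, the latter at 35.8% and 16.2%. That scaling gave median ratios of 1.11 (POLK-/- to wild-type, 0.855 with each peak's background) and 1.25 (DDX23-/- to wild-type). Lower shares under fewer peaks or shorter distances follow from their construction, and the cause of the changed ratios was not tested. Depth limits what an absent peak shows, since a list holds only what passed the caller.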
